A study of Mus musculus with 2 samples.

Results

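The 80 genes described here encode the proteins of the cytosolic ribosome. They were taken by name from the 40276 features of the count tables, as every symbol of the Rpl, Rps, Rplp or Rpsa series followed by a number and, for some, the letter a, l or x. Of them, 31 belong to the small subunit and 49 to the large subunit. The rule leaves out 7 ribosomal proteins with other names, which are given separately. The labels describe 1 normal mouse brain and 1 normal mouse heart, each a formalin-fixed, paraffin-embedded (FFPE) section of 5 µm. Total RNA was copied with random primers on an array of spots, by the method called spRandom-seq, and the label on reverse transcription is the same for both sections. Genotype, strain, age and sex are not given in the sources used here. Each tissue is 1 library, so no difference between the tissues has a replicate check, no test was possible and no p-value is given. A spot is a small area that can hold several cells.

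Each ribosomal subunit is built of folded ribosomal RNA (rRNA) held by many small proteins, nearly all present once per ribosome. The large subunit forms the peptide bond, and the small subunit reads the message. Growing and dividing cells are known for making many ribosomes, and the mRNAs for ribosomal proteins typically begin with a C followed by a run of C and U, through which mTOR signalling and the protein Larp1 set their translation. A few proteins have paralogs with a narrow tissue range. Rpl3l, a copy of Rpl3 made in heart and skeletal muscle, is the best known of them.

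Sequences around the annotated starts are shown first, for a pair of abundant members with nearly the same order in both tissues, Rpl4 and Rps24, and for the 3 members that differed most between the sections, Rplp0, Rps2 and Rpl3l. Each runs from 20 bases before the transcript's start to 10 bases after it, 5′ to 3′ on the gene's strand, from RefSeq on GRCm38.p6, which is not the build of the count tables. Capitals mark the longest run of C and T in the window, and the first of them where 2 are equal.
Rpl4: agTCTTTCCTTTTCCTgtgggagcagccgg
Rps24: acgcccccgcgctggggTCCTTCCTTgcgc
Rplp0: acgtcgTCTTCgggtttcgaggaccgcctg
Rps2: tgcgtaggcagtcgagatctcgcgCTTCTT
Rpl3l: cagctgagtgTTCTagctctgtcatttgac
The windows lie on the plus strand at chr9:64173367-64173396 for Rpl4, chr14:24490658-24490687 for Rps24, chr5:115559447-115559476 for Rplp0, chr17:24720043-24720072 for Rps2 and chr17:24727806-24727835 for Rpl3l. The run is 14 bases long in Rpl4 and 9 in Rps24. It is 5 bases in Rplp0, at least 6 in Rps2, where it reaches the window's last base, and 4 in the muscle paralog Rpl3l. The marked run lies before the annotated start in Rpl4, Rplp0 and Rpl3l, spans it in Rps24 and lies after it in Rps2. Rps24 and Rpl3l have a second annotated start, not printed. Start windows were found for 60 of the 80 members, with 73 starts. A run of 8 or more C or T within 20 bases of the start was in 42.5% of the members' starts and in 16.0% of all 32851 starts in the table. Over the 300 bases around each start and on both strands, CTTCCG, which reads as the core of an ETS-family site, was in 60.3% of the members' starts against 16.9% of all starts. CTCTTTCC was in 17.8% against 3.12%. TATAAA was in 9.59% against 13.6%. A match is a description of the letters only.

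Both sections had enough counts to place most members. After leaving out barcodes under 500 counts or 200 features, 4080 brain spots and 3726 heart spots of 4992 barcodes remained, with 37143546 and 44613867 counts. The same 4992 barcodes, those of the array, are listed in both sections. The median was 5981 counts per spot in brain and 9050 in heart. Parts of the rRNA made up 31.1% of brain counts and 48.5% of heart counts, and mitochondrial transcripts 4.93% and 8.04%. Because of that gap the main comparisons of the tissues are given on 2 scales. Values of spot groups are on all counts unless stated. The first is counts per 1000000 counts of all kinds in kept spots (CPM), and the second is CPM outside ribosomal, mitochondrial and small structured RNA. The labelled tissues had their own markers: 7 of 7 neuronal genes were higher in brain, at 3297 CPM summed against 150 in heart, and 5 of 5 ventricular muscle genes were higher in heart, at 21449 CPM against 30.1.

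Ribosomal protein genes took a small part of both libraries and a larger one in heart. They held 39124 counts in brain, which is 0.105% of all counts (95% exact binomial interval 0.104 to 0.106%). In heart they held 63327 counts, or 0.142% (0.141 to 0.143%). These intervals and all others here cover counting error only and take each count as a separate molecule. The summed level was thus 1053 CPM in brain and 1419 CPM in heart, a heart-over-brain ratio of 1.35 (1.33 to 1.36). Outside ribosomal, mitochondrial and small structured RNA the shares were 0.165% and 0.327%, and the ratio was 1.98 (1.957 to 2.007). Without Rplp0, Rps2 and Rpl3l it was 1.29 on the first scale and 1.89 on the second. With every spot given the same weight in place of every count, the first ratio was 1.15. A tissue with fewer cells of a type and one with less RNA per cell cannot be told apart in such sums.

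Most members are short genes, which sets what they can be compared with. The median gene span was 3.33 kb, and 63 of 80 spanned at most 5 kb. Other protein-coding genes of at most 5 kb, 3962 of them, together took 0.810% of brain counts and 0.859% of heart counts, a ratio of 1.06. Genes over 100 kb took 33.1% of brain counts and 17.4% of heart counts. The part of gene length in the tissue ratio was not tested. Many members also have processed copies elsewhere in the genome. At the median, 56.5% of a member's 50-base stretches of transcript were shared with the transcript of another gene, 50 members shared at least 50%, and 3 shared none, Rpl3l and Rpl39l among them. Across the 80 genes the level per kb of transcript had a Spearman correlation of -0.08 with that share in brain and -0.12 in heart, given as a description since genes are not independent replicates. Rps27 and Rpl10 each have a near-complete copy among the features, and the feature Gm49804 holds nearly all of the Rps10 transcript. The counts of these members are therefore uncertain.

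The small subunit genes held fewer counts in sum than the large subunit genes, over 31 genes against 49. The ratios below are of sums and are not scaled to the number of genes. Small subunit genes held 17287 brain counts and large subunit genes 21837, a ratio of 0.792 (0.776 to 0.808). In heart the counts were 27344 and 35983, a ratio of 0.760 (0.748 to 0.772). The small subunit was 1.32-fold higher in heart (1.29 to 1.34) and the large subunit 1.37-fold (1.35 to 1.40). Another feature of the annotation overlaps 28 large and 16 small subunit members. Without these 44 members the ratio of small to large was 0.993 in brain and 0.924 in heart. Leaving them out also changes the number of genes in each sum.

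Single members were spread widely around these sums. The median member stood at 10.7 CPM in brain and 15.4 CPM in heart. Rpl4, a protein of the wall of the peptide exit tunnel, had the highest level of the members in both sections, with 2192 brain counts and 2737 heart counts. That is 59.0 CPM in brain (56.6 to 61.5) and 61.3 CPM in heart (59.1 to 63.7), a ratio of 1.04 (0.982 to 1.10). Rps24, one of the small subunit proteins mutated in Diamond-Blackfan anaemia, was next in both, at 39.1 and 55.4 CPM. After them in brain came Rps27a (33.7 CPM), Rps25 (30.5), Rpl6 (30.1), Rpl23 (29.8), Rpl3 (29.1), Rpl5 (27.4), Rpsa (26.3) and Rps20 (25.8). In heart the next were Rpl23 (51.6), Rpl5 (42.2), Rpsa (39.97), Rplp0 (37.1), Rps25 (36.2), Rpl13 (34.1), Rpl7 (32.9) and Rps4x (32.1). Several members changed place. Rpl3l was in position 76 in brain and 19 in heart, Rplp0 in position 62 and 6, and Rps2 in position 71 and 31. The other way went Rpl3 (7 and 44), Rps15a (17 and 52), Rpl15 (37 and 69) and Rps26 (33 and 57).

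Levels of different genes were set side by side per kb of transcript, a rough scale that rests on 1 annotated transcript per gene. Rps20, with a transcript of 3706 bases, was in position 10 by CPM and 65 per kb in brain. Rps28, Rps21, Rps25, Rps27a and Rps29 were among the highest in both sections. In brain the highest were Rps28 at 62.6 CPM per kb, Rps21 at 60.9, Rps27a at 52.9 and Rps25 at 52.9, followed by Rps29, Rpl4, Rpl22, Rplp1, Rps15a and Rpl38. In heart they were Rps25 at 62.8 CPM per kb, Rps28 at 57.6, Rps29 at 48.7 and Rpl23 at 48.7, followed by Rps21, Rps27a, Rplp2, Rpl22, Rpl13 and Rps14. Although the proteins are needed in equal number, the interquartile range of the members ran from 8.93 to 21.8 CPM per kb in brain and from 14.3 to 32.2 in heart. The part of the chosen transcript and of the read counting in this spread was not tested. The order was much the same in the tissues, with a Spearman correlation of 0.83 and a Pearson correlation of 0.90 between the levels per kb of the 80 genes. Both values come from 1 pair of libraries, and the transcript lengths are shared.

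**Figure D1:**
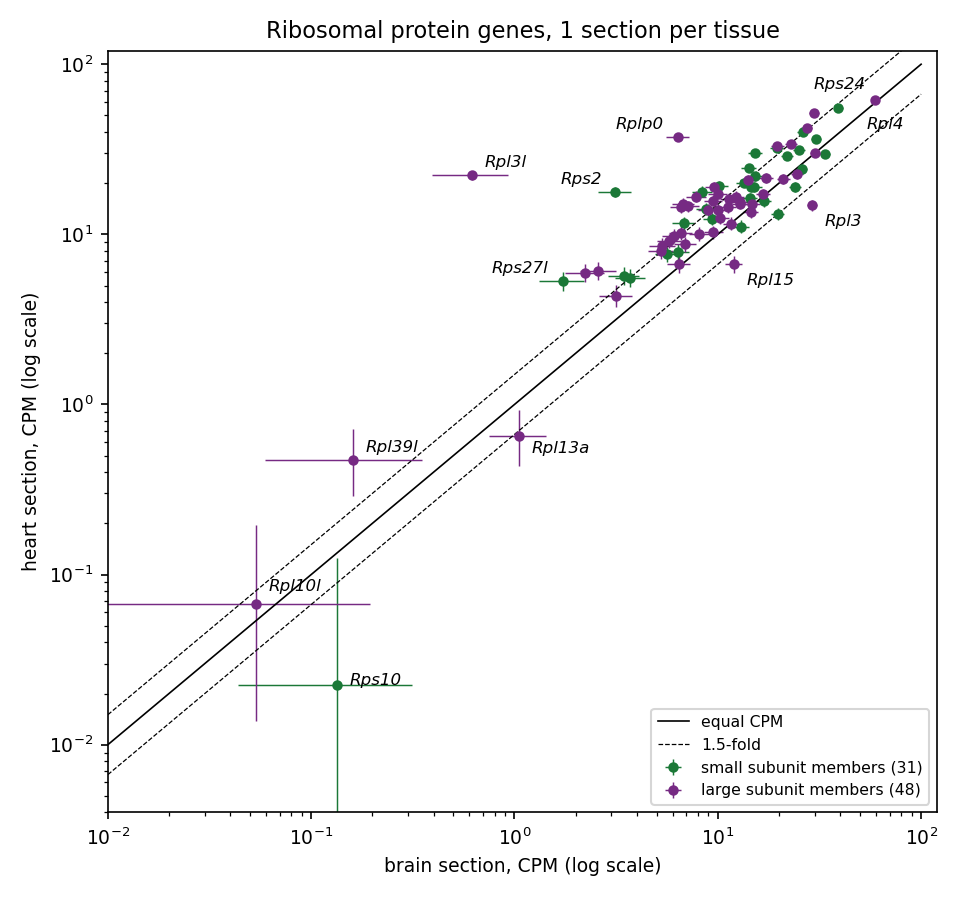
CPM of all counts in the brain section (x axis, log scale) and the heart section (y axis, log scale) for the members with a count in brain, with 95% exact Poisson intervals. Solid line: equal CPM; dashed lines: 1.5-fold. Rpl3l, Rplp0 and Rps2 stand far above the line, and Rpl3 and Rpl15 stand below it.

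A call needed a 1.5-fold difference and at least 20 CPM in the higher section. Of the 80 members, 26 reached 20 CPM in either section, so the calls cover the more abundant ones. On all counts, 10 of the 26 were called higher in heart, against 17.2% of the 6345 features at that level, and 1 was called higher in brain, against 55.2%. The 10 were Rpl3l, Rplp0, Rps9, Rpl23, Rps14, Rpl7, Rps4x, Rpl5, Rpsa and Rps12, and the 1 was Rpl3. Whatever their size, 20 of the 26 were higher in heart, against 27.4% of the features. The median log2 ratio of heart over brain was 0.52 for the members and -0.71 for the features, with 0.5 counts added to each sum. Outside ribosomal, mitochondrial and small structured RNA, 50 of 63 members at 20 CPM were called higher in heart, against 34.0%, and 0 in brain, against 27.7%. The medians there were 1.04 for the members and 0.09 for the 9333 features, of which 53.3% were higher in heart. At 4-fold, Rpl3l and Rplp0 were called higher in heart on all counts, against 5.41% of features, and Rps2 as well on the second scale, against 8.6%. The 10 calls in heart on all counts became 32 with a floor of 5 CPM, 6 with every spot weighted alike and 5 without the members that other features overlap.

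Counting error was small beside most of these ratios. Over all 80 members, 66 were higher in heart and 14 in brain on all counts, and 75 and 5 on the second scale. The share of all features was counted only with a floor. On all counts, 27.4% at 20 CPM and 43.5% from 5 to under 20 CPM were higher in heart, and on the second scale 53.3% at 20 CPM. The interval of the ratio lay above 1 for 58 members, below 1 for 6 and included 1 for 16. On the second scale the numbers were 73, 2 and 5. No share over all features was counted for these intervals. The member just inside 1.5-fold was Rps12, at 1.503 (13.4 CPM in brain and 20.2 in heart), and the one just outside was Rpl8, at 1.49 (14.1 and 20.98 CPM). Both intervals include 1.5.

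**Figure D2:**
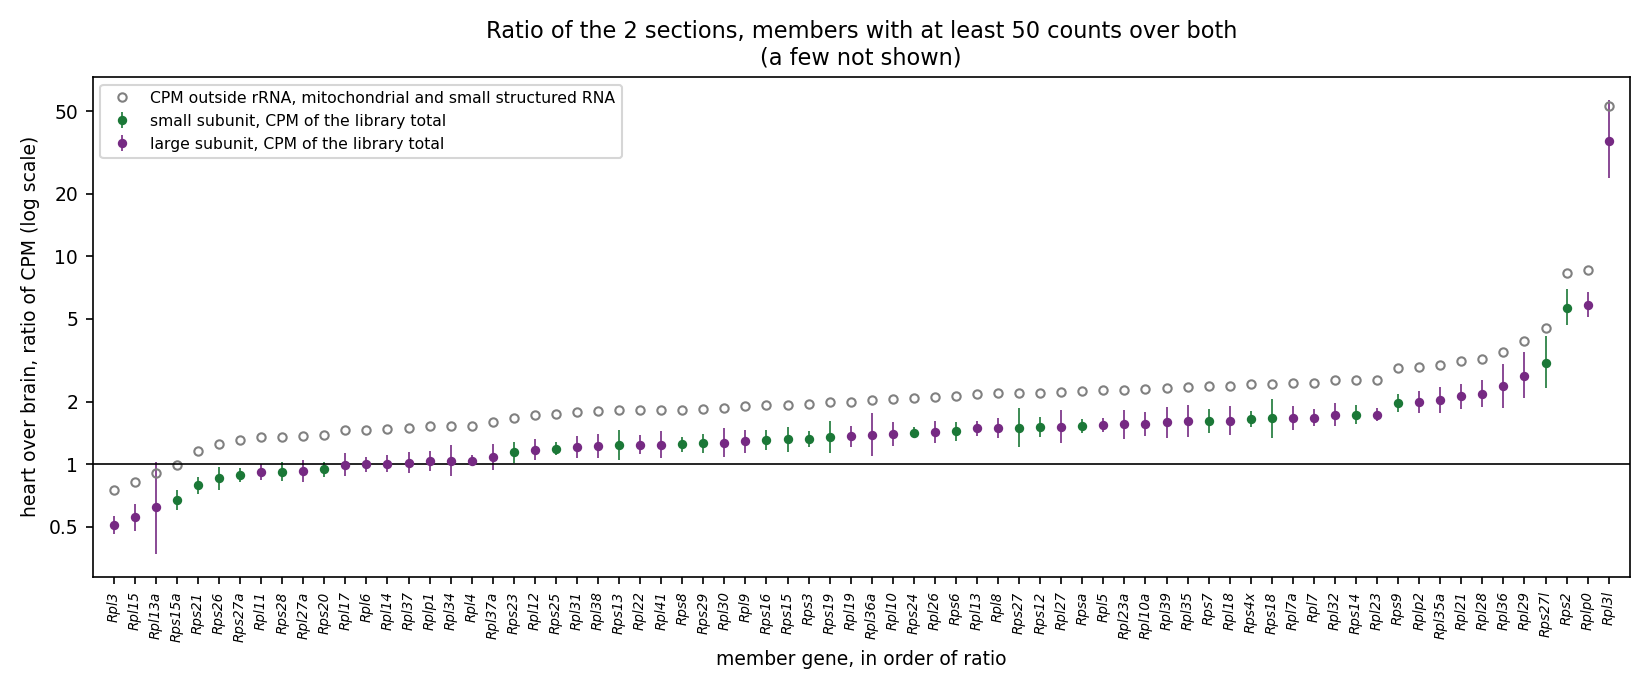
Heart-over-brain ratio of CPM (log scale) for members with at least 50 counts over both sections, a few of which are not shown, in order of the ratio. Filled points are on all counts with 95% exact intervals, open points are outside ribosomal, mitochondrial and small structured RNA; Rpl3 and Rpl15 stay under 1 on both scales, and Rpl3l, Rplp0 and Rps2 lie above 5 on both.

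The muscle paralog Rpl3l had the largest ratio among members at 20 CPM in either section. It had 23 counts in brain, or 0.619 CPM (0.393 to 0.929), and 990 in heart, or 22.2 CPM (20.8 to 23.6). Heart was thus 35.8-fold higher (23.7 to 56.8). The brain value was near the level of genes that should be silent: 1552 odorant and vomeronasal receptor genes had 2.47 counts per kb of gene span in brain, which over the span of Rpl3l comes to 20.6 counts, and 31.9 in heart. No other feature of the annotation overlaps Rpl3l, and none of its 50-base stretches is shared. With each spot thinned to 2800 counts, 4.90% of 2939 heart spots and 0.163% of 3060 brain spots had a count of Rpl3l.

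Rpl3, the general form, went the other way. It had 1080 brain counts and 660 heart counts, 29.1 CPM (27.4 to 30.9) against 14.8 CPM (13.7 to 16.0), so that brain was 1.97-fold higher (1.78 to 2.17). Rpl3 overlaps Syngr1, a synaptic vesicle gene on the other strand with 2135 counts in brain and 351 in heart, and strand use in the counting is not stated. The part of Syngr1 in the difference was not tested. In heart Rpl3l therefore had more counts than Rpl3, and in brain Rpl3 had nearly all of the pair's counts.

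Rplp0 carries the stalk of the large subunit that recruits elongation factors. It had 236 counts in brain and 1655 in heart, 6.35 CPM (5.57 to 7.22) against 37.1 (35.3 to 38.9), a ratio of 5.84 (5.09 to 6.72). Its partners in the stalk did not share that size of difference. Rplp1 stood at 16.6 CPM in brain and 17.2 in heart, a ratio of 1.04 (0.931 to 1.15). Rplp2 stood at 9.61 and 19.1 CPM, a ratio of 1.98 (1.75 to 2.25). Thinned to 2800 counts, 1.54% of brain spots and 9.25% of heart spots had a count of Rplp0.

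Rps2, a small subunit protein at the entrance of the mRNA channel, was below the 20 CPM of the call rule. It had 116 counts in brain and 789 in heart, 3.12 CPM (2.58 to 3.75) against 17.7 (16.5 to 19.0), a ratio of 5.66 (4.65 to 6.94). With every spot weighted alike the ratio was 3.18. For Rps2, 79.0% of the 50-base stretches are shared, with 71 pseudogenes holding at least 1, and for Rplp0 41.8% are shared.

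Several other members were at least 1.5-fold higher in heart. Rps9 stood at 15.3 CPM in brain and 30.04 in heart, Rpl23 at 29.8 and 51.6, and Rps14 at 14.2 and 24.5. Rpl7 stood at 19.7 and 32.9 CPM and Rps4x at 19.5 and 32.1. Rpl5, which with Rpl11 carries the small 5S RNA into the ribosome and can bind Mdm2, stood at 27.4 and 42.2 CPM, a ratio of 1.54 (1.43 to 1.66). Rpl11 stood at 24.6 and 22.5 CPM, a ratio of 0.915 (0.836 to 1.002). Rpsa, also known as the laminin receptor precursor, stood at 26.3 and 39.97 CPM, a ratio of 1.52 (1.41 to 1.65).

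Apart from Rpl3, members on the brain side were closer to equality and depended on the scale. Rps21 stood at 24.0 CPM in brain and 19.0 in heart, a ratio of 0.791 (0.719 to 0.869) that became 1.16 outside ribosomal, mitochondrial and small structured RNA. Rps27a, made as a fusion with ubiquitin, stood at 33.7 and 29.8 CPM, a ratio of 0.884 (0.818 to 0.956) that became 1.30. Rps20 (0.942), Rpl6 (0.998) and Rpl14 (1.01) had intervals that include 1. Under 20 CPM, Rpl15 stood at 11.98 CPM in brain and 6.66 in heart, a ratio of 0.556 (0.478 to 0.645) that stayed under 1 at 0.817 on the second scale. Rpl15 overlaps Nkiras1 on the other strand, which had 715 brain counts and 312 heart counts, and its part in the ratio was not tested. Rps15a had a ratio of 0.670, which became 0.986.

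Of the 54 members under 20 CPM in both sections, 48 had at least 5 CPM in either, and 42 of the 48 were higher in heart on all counts, against 43.5% of the features from 5 to under 20 CPM. Of the 54, 8 had a ratio under 1: Rpl13a, Rpl15, Rpl17, Rpl27a, Rps10, Rps15a, Rps26 and Rps28. A ratio from 1 up to 1.5 was found for 22, namely Rpl9, Rpl10, Rpl10l, Rpl12, Rpl19, Rpl26, Rpl30, Rpl31, Rpl34, Rpl36a, Rpl37, Rpl37a, Rpl38, Rpl41, Rplp1, Rps13, Rps15, Rps16, Rps19, Rps23, Rps27 and Rps29. It was from 1.5 up to 2 for 13, among them Rpl7a, Rpl10a, Rpl18, Rpl23a, Rpl27, Rpl32, Rpl35, Rpl39, Rplp2, Rps7 and Rps18. It was 2 or more for 10, among them Rpl21, Rpl28, Rpl29, Rpl35a, Rpl36, Rpl39l, Rps2 and Rps27l, and Rpl24 had no brain count. The largest of these ratios outside the paralogs and Rps2 were those of Rpl29, 2.66, and Rpl36, 2.37. How all features of that level divide over these classes was not counted.

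The other paralogs were scarce. Rps27l, a copy of Rps27 that p53 can induce, had 64 counts in brain and 236 in heart, 1.72 and 5.29 CPM, a ratio of 3.07 (2.32 to 4.11). Rpl39l, known from testis, had 6 and 21 counts, where 11.6 and 18.0 would follow from the receptor genes. Rpl10l, also known from testis, had 2 and 3 counts, where 2.53 and 3.92 would follow. Neither is thus above that background in a way these counts can show.

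Members with general functions were also nearly without counts in a few cases. Rpl24 had 0 counts in brain and 1 in heart, and Rps10 had 5 and 1. The upper bound of the exact Poisson interval of the 0 is 0.0993 CPM. Over their spans the receptor genes' density would give 12.7 and 19.8 counts for Rpl24 and 15.4 and 24.0 for Rps10, so both stand below it. In the annotation each lies under a second feature on its own strand. Over Rpl24 it is Gm28037 (38 and 25 counts). Over Rps10 it is Gm49804 (16 and 28 counts), which holds nearly all of the Rps10 transcript. Rpl13a had 39 and 29 counts, or 1.05 and 0.650 CPM. Such values describe the counting as well as the tissue, and the part of the overlap was not tested.

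Many members host small nucleolar RNAs in their introns. In the annotation 50 such features lie inside 28 members, and all 50 were at 0 in both sections. Of 528 small nucleolar RNA features that overlap no other feature, 151 had counts in brain and 220 in heart. Of 571 that overlap another feature, 58 and 86 had counts.

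Other genes of protein synthesis did not all follow the ribosomal proteins. On all counts, 72.6% of features at 20 CPM were higher in brain, while 43.5% of those from 5 to under 20 CPM were higher in heart. On the second scale 53.3% of features at 20 CPM were higher in heart. The lists below were counted without a floor. In either section, 7 of 78 mitochondrial ribosomal proteins and 11 of 35 assembly factors reached 20 CPM, so the share at 20 CPM is no close match for them. Of the 7 ribosomal proteins outside the naming rule, 4 were higher in heart and 3 in brain on all counts. Rack1, the scaffold on the small subunit head, stood at 21.6 CPM in brain and 38.02 in heart, a ratio of 1.76 (1.62 to 1.92). Rps3a1 stood at 21.1 and 30.8 CPM, a ratio of 1.46 (1.34 to 1.60). Rpl22l1, the paralog of Rpl22, stood at 10.9 and 3.25 CPM, so that brain was 3.35-fold higher, and brain was still higher outside ribosomal, mitochondrial and small structured RNA (heart over brain 0.438). Rpl22 itself stood at 17.3 and 21.4 CPM.

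Translation factors were split on all counts, 15 higher in heart and 14 in brain of 29. At 20 CPM, a level that 24 of them reached, 27.4% of all features were higher in heart. On the second scale 23 of the 29 were higher in heart, against 53.3% of features at 20 CPM. The list's median log2 ratio was 0.66 there. Eif4g2 stood at 173 CPM in brain and 227 in heart. Eef2, which moves the ribosome along the message, stood at 89.0 CPM in brain and 147 in heart, a ratio of 1.65 (1.59 to 1.72). Tpt1 stood at 49.6 and 170 CPM, a ratio of 3.42 (3.25 to 3.60). Eef1a1, which brings aminoacyl-tRNA, went the other way at 204 and 94.3 CPM, 2.16-fold higher in brain (2.08 to 2.24), and Eif4a2 stood at 119 and 59.2 CPM. Tpt1, Eef2 and Eef1a1 mRNAs are known to carry the same pyrimidine start as the ribosomal proteins, and here they lay on both sides.

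Ribosome assembly factors were mostly higher in brain: 32 of 35 on all counts and 3 in heart. Ncl, nucleolin, stood at 102 CPM in brain and 68.8 in heart, and Npm1, nucleophosmin, at 39.1 and 26.0. Nop56 and Nop58 are core proteins of the particles that methylate rRNA. Mdn1, a large assembly ATPase, stood at 69.2 and 25.2 CPM. Nop56 was 3.87-fold higher in brain (3.34 to 4.49) and Nop58 2.75-fold (2.46 to 3.08), and both stayed higher in brain on the second scale; they were chosen after their values were seen. The list as a whole still leaned to brain on that scale, but less. There 12 of 35 were higher in heart, against 53.3% of features at 20 CPM. The list's median log2 ratio was -0.11 there, beside 0.09 for those features. The median log2 ratio of the list was -0.67 on all counts, beside 0.49 for the 80 ribosomal protein genes. It was -0.71 for all features at 20 CPM, a level that 11 of the 35 reached.

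Mitochondrial ribosomal proteins, which serve the separate ribosome of the organelle, showed 42 of 78 higher in heart and 33 in brain on all counts, with a median log2 ratio of 0.05. On the second scale 66 were higher in heart. Mrps9 (36.6 and 28.5 CPM), Mrps28 (27.6 and 34.3) and Mrpl42 (8.75 and 29.5) had the highest levels. Mrpl42 was 3.37-fold higher in heart (2.98 to 3.82) and Mrpl51 2.57-fold (2.27 to 2.92). Among genes of growth control, 12 of 14 were higher in brain on all counts, against 72.6% of features at 20 CPM. Their median log2 ratio was -0.59, near the -0.71 of those features. Rptor stood at 102 and 65.0 CPM, Larp1 at 64.1 and 40.5 CPM, and Rps6kb1, the kinase of Rps6, at 54.7 and 25.8 CPM. On the second scale 6 of the 14 were higher in heart. Gas5, a host of small nucleolar RNAs, stood at 20.5 and 8.05 CPM.

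Within each section the summed level of the members differed by less than 2-fold between the groups of spots used here. With finer groups (Leiden resolution 1.0) the range was 2.11-fold in brain and 2.69-fold in heart. Spots were grouped on genes that include none of the members, and the groups are named by number and leading genes. In brain the highest sum was in group 2 (322 spots, led by the myelin-related genes Mobp, Ermn and Cldn11), at 1440 CPM (1378 to 1505). Close to it were group 1 at 1417 CPM and group 6 (694 spots, led by the hypothalamic peptide genes Pmch and Avp) at 1401 CPM (1368 to 1434). The lowest was group 10 (139 spots, Neurod6 and Hpca among its leading genes) at 816 CPM (792 to 842). The highest was thus 1.76 times the lowest (1.67 to 1.86).

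The other brain groups lay between these. Group 7 (54 spots, led by Ttr, Sostdc1 and Enpp2, with choroid plexus markers at 3890 CPM) stood at 1349 CPM and group 5 (307 spots, led by Ptgds, Thbd and Fmod) at 1244. Group 8 (65 spots, led by Dsp and Maml2, with Prox1) stood at 1149 CPM and group 9 (146 spots, with Penk and Drd2 among its leading genes) at 1030. Group 8 was 1.10 times the other brain spots on all counts and 0.916 times on the second scale. Group 3 (669 spots, led by Shox2 and Prkcd) at 923 CPM and group 4 (1057 spots, with Pdzrn3 and Mef2c among its leading genes) at 917 had nearly the same value, and their intervals overlap.

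Depth moved with these sums in brain. Group 1 has a median of 1189 counts per spot, far under the 5981 of the section, and stays unnamed. The brain members stood at 1604 CPM in spots of 1000 to 2500 counts and at 974 in spots of 10000 to 20000. Among spots of 5000 to 20000 counts alone, group 7 stood at 1450 CPM (20 spots), group 6 at 1319 (352 spots), group 5 at 1170, group 2 at 1145 (73 spots), group 4 at 913 and group 3 at 903. Group 10 stood at 987 CPM there (34 spots). Depth still varies within that window, and its part in these values was not tested.

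**Figure D3:**
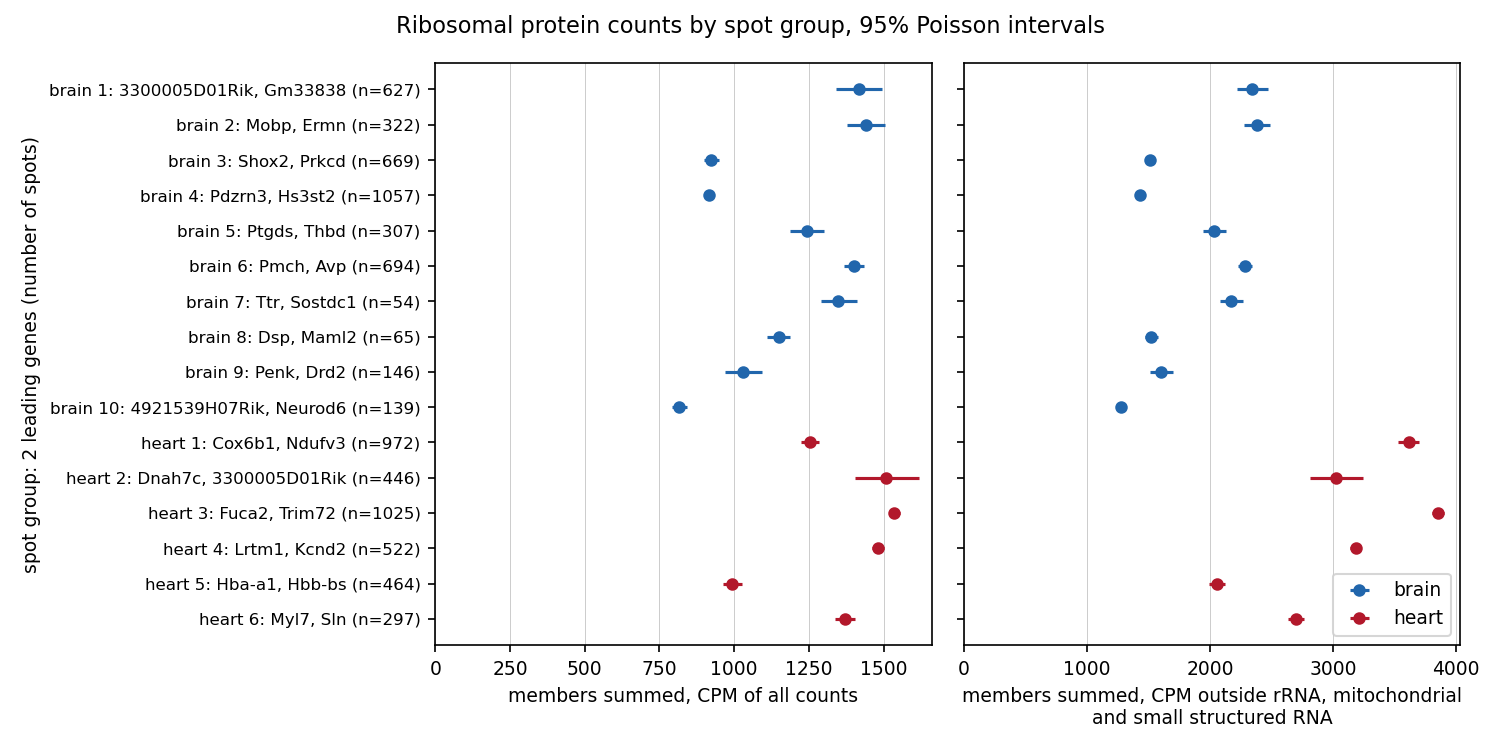
Summed CPM of the 80 members in each spot group, on all counts (left) and outside ribosomal, mitochondrial and small structured RNA (right), with 95% exact Poisson intervals; rows give 2 leading genes and the number of spots. In brain the groups run from 816 to 1440 CPM and in heart from 995 to 1537 CPM on all counts.

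In heart, with the groups used here, the highest was group 3 (1025 spots, led by Fuca2, Trim72 and Myl3) at 1537 CPM (1517 to 1556). The lowest was group 5 (464 spots, led by the globin genes Hba-a1, Hbb-bs and Hbb-bt) at 995 CPM (963 to 1027). The ratio of the extremes was 1.54 (1.49 to 1.60), and with spots of at least 1000 counts and 400 features it was 2.16, beside 2.12 in brain. Between them stood group 2 (446 spots of a median of 796 counts, unnamed) at 1509 CPM, group 4 (522 spots, led by Lrtm1 and Kcnd2) at 1480, group 6 (297 spots, led by Myl7, Sln and Myl4) at 1371 and group 1 (972 spots, led by Cox6b1 and Ndufv3) at 1253. The order depended on the scale. Outside ribosomal, mitochondrial and small structured RNA, group 1 was second at 3615 CPM, after group 3 at 3852, and group 5 stayed lowest at 2056. Group 1 was 0.868 times the other heart spots on all counts and 1.12 times on the second scale. Group 4 went from 1.06 to 0.960 times. Among spots of 5000 to 20000 counts group 3 stood at 1500 CPM of all counts and group 5 at 982. Erythrocyte markers summed to 5040 CPM in group 5 and to between 52.3 and 161 CPM in the other heart groups, and their part in its low value was not tested.

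Within the brain, the members called at least 1.5-fold higher than in the other spots were many in a few groups. In group 2 they were 15 of 27 at 20 CPM, against 13.5% of all features, in group 6 11 of 25, against 8.98%, and in the shallow group 1 16 of 29, against 8.52%. In group 7 they were 9 of 29, against 18.2%, and in group 5 4 of 24, against 26.4%. Group 10 had 5 of 19 members called lower, against 19.0%. Rps6, Rps20, Rps24, Rps25, Rps27a, Rpl14 and Rpl27a were called in both group 2 and group 6. Rps25 stood at 52.3 CPM in group 2 and 29.7 in the other spots, 1.76-fold (1.37 to 2.24). Rps27a stood at 50.9 CPM in group 2 and 33.0 in the other spots, 1.54-fold (1.19 to 1.962). Rps24 stood at 58.9 CPM in group 2 and at 56.3 in the shallow group 1, against 38.3 and 38.6 in the other spots. Rps24 was thus on the high side in several groups: it also stood at 57.3 CPM in group 6 and 36.2 in the other spots, 1.58-fold (1.39 to 1.80). Rpl4 stood at 73.4 CPM in group 6 and 56.8 in the other spots, and ran over the brain groups from 41.9 CPM in group 9 to 75.02 in group 8. Over the same groups Rps24 ran from 31.1 CPM in group 10 to 58.9 in group 2.

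In heart the globin-led group 5 had 10 of 24 members called lower than in the other spots, against 9.9% of features, and 0 called higher, against 33.7%. They were Rpl13, Rpl23, Rpl3l, Rpl8, Rps25, Rps27a, Rps3, Rps4x, Rps9 and Rpsa. Rpl23 stood at 32.3 CPM in group 5 and 53.3 in the other spots. Rpl4 stood at 42.6 CPM in group 5 and 63.0 in the other spots. In group 3, 0 of 29 members were called higher than in the other spots at 1.5-fold, against 0.0634% of features. Rpl23, at 58.9 and 47.7 CPM, a ratio of 1.24 (1.13 to 1.34), had the largest ratio there among members at 50 CPM. In the shallow group 2 that was Rps4x, at 52.8 CPM against 31.9 in the other spots (1.66-fold, 1.09 to 2.42).

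**Figure D4:**
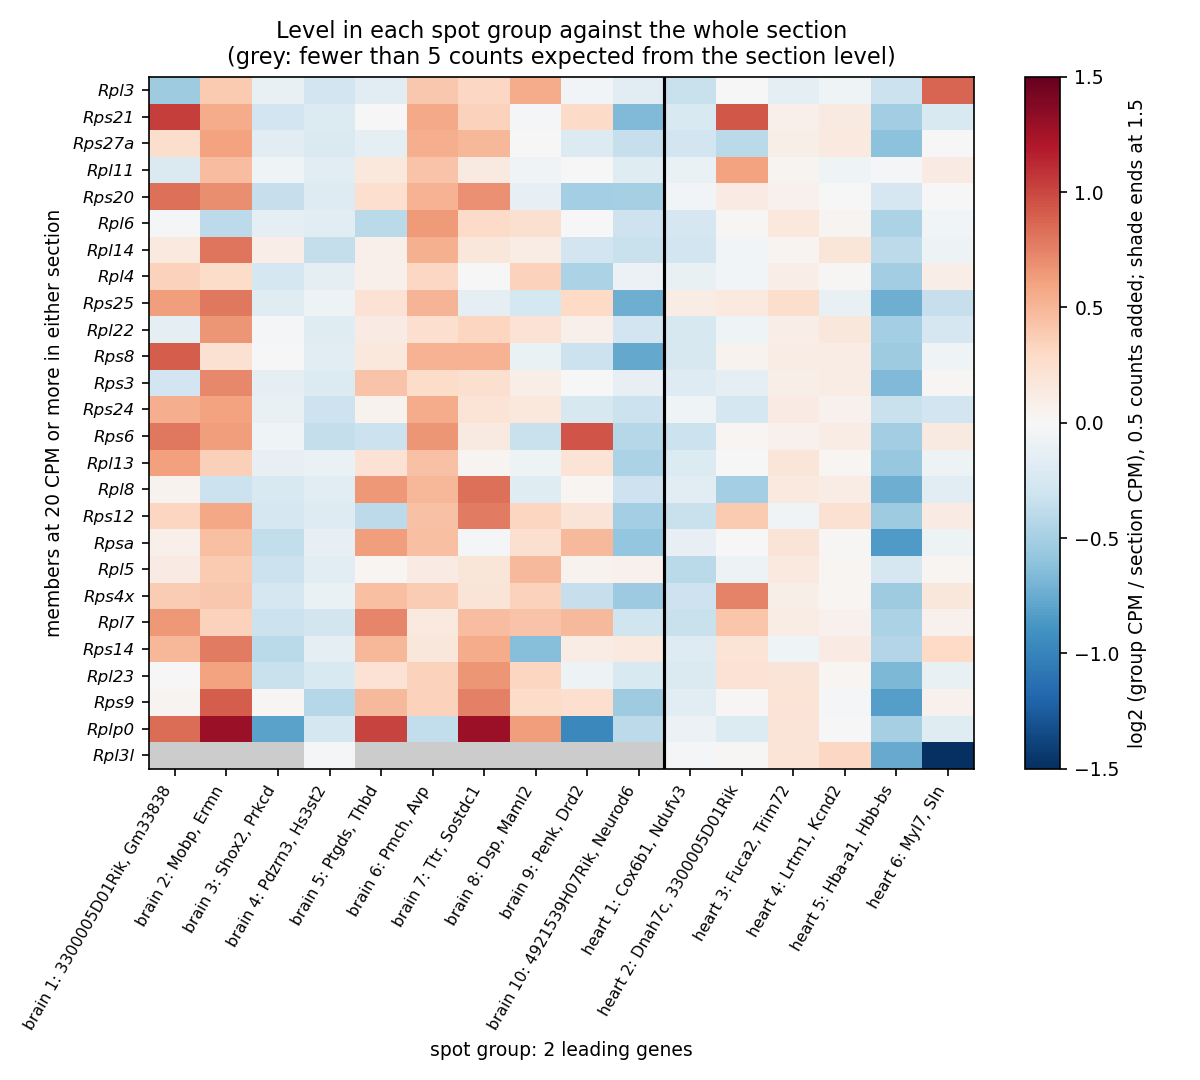
Log2 of each member's CPM in a spot group over its CPM in the whole section, with 0.5 counts added, for the 26 members at 20 CPM or more in either section, in order of the heart-over-brain ratio. Grey cells have fewer than 5 counts expected; Rpl3l and Rpl3 in the Myl7-led heart group stand apart in opposite directions.

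The Rpl3 pair was divided between areas of the heart. In group 6, led by Myl7, Sln and Myl4, the atrial marker genes summed to 985 CPM and to between 18.0 and 211 CPM in the other heart groups. Rpl3l had 19 counts in group 6, or 3.83 CPM, and stood at 13.0 CPM in group 5, 21.5 in group 2, 21.6 in group 1, 25.5 in group 3 and 27.6 in group 4. The rest of the heart was 6.39-fold higher than group 6 (4.07 to 10.7). Rpl3 had 134 counts in group 6, or 27.0 CPM, and stood between 11.6 and 14.1 CPM in the other heart groups. Rpl3l thus made up 12.4% of the counts of both genes in group 6 (7.64 to 18.7%), against 65.1% in group 1, 65.4% in group 3, 66.2% in group 4 and 52.7% in the globin-led group 5.

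The level of Rpl3 in group 6 was in the range of the brain groups, which ran from 19.5 to 42.5 CPM. Syngr1 stood at 5.45 CPM in group 6 and between 7.32 and 9.79 CPM in the other heart groups. Of the 28 members at 20 CPM in group 6 or in the other spots, Rpl3 and Rpl10 were called higher and Rpl3l lower, against 39.4% and 6.66% of all features. The summed members of group 6 stood 0.962 times as high as in the rest of the heart on all counts (0.938 to 0.986). On the second scale they stood 0.804 times as high. Ventricular muscle genes summed to 13462 CPM in group 6 and to 20276 CPM in group 1, 25213 in group 3 and 23190 in group 4, with 11630 in the globin-led group 5. Fibroblast and matrix genes summed to 810 CPM in group 6 and to between 161 and 303 CPM in the others.

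**Figure D5:**
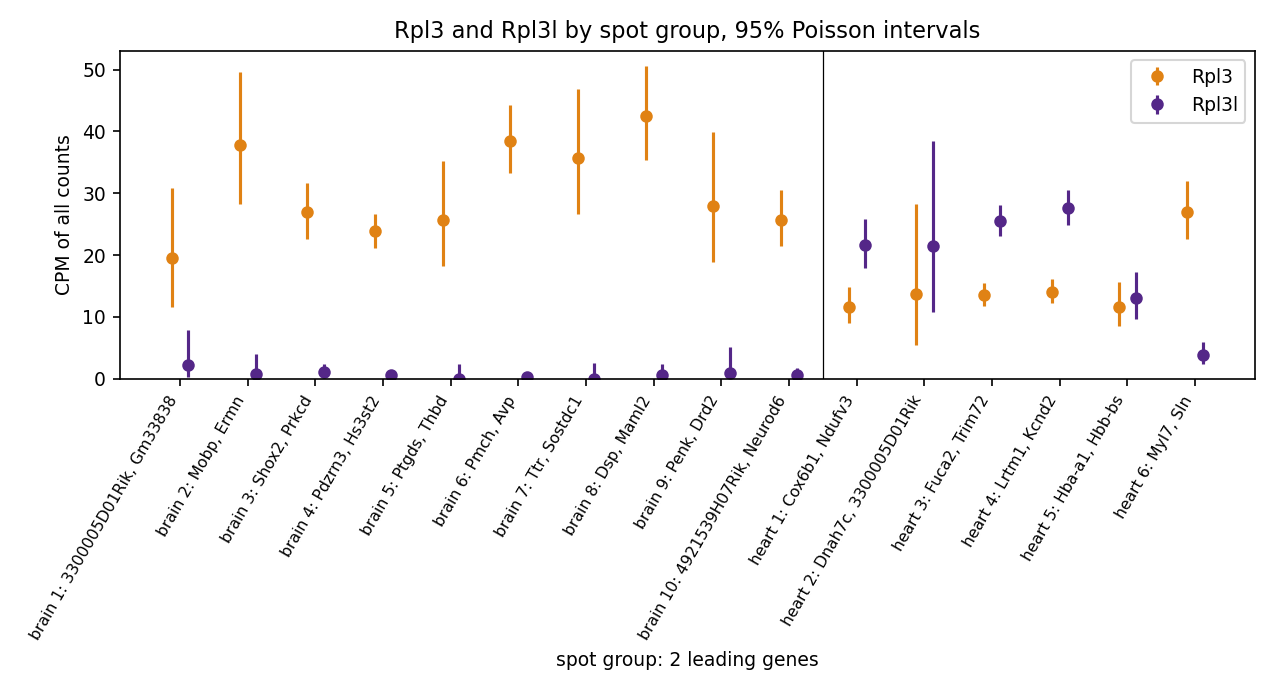
CPM of all counts of Rpl3 and Rpl3l in each spot group of brain (left of the line) and heart (right), with 95% exact Poisson intervals. Rpl3l is above Rpl3 in the point values of heart groups 1 to 5 and below it in group 6, and it is at most 2.16 CPM in the brain groups.

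Rplp0 kept its difference between tissues in every group. In brain it ran from 2.79 CPM in group 9 and 3.55 in group 3 to 15.1 in group 7 and 15.3 in group 2. In heart it ran from 26.1 CPM in the globin-led group 5 to 42.2 in group 3. Rps2 ran from 1.49 CPM in brain group 3 to 9.74 in the shallow group 1, and in heart from 12.7 in group 6 to 19.9 in group 3. Over the 14 groups that are not shallow, each heart group exceeded each brain group for 2 of the 26 members at 20 CPM, Rpl3l and Rplp0, against 7.16% of features at that level, a share near that of the members. The reverse held for 0 of the 26, against 33.7% of features. Below 20 CPM each heart group exceeded each brain group for Rplp2, Rps2 and Rps27l. The share of all features below 20 CPM that do so was not counted, so these are single cases only. Groups of 1 section share a library, so this describes these sections.

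At the level of single spots the counts were too few to show more. With each spot thinned to 2800 counts, which left out 1020 brain and 787 heart spots as too shallow, the median spot had 3 counts over all 80 members in either section. The variance was 1.26 times the mean in brain and 1.27 times in heart. Before thinning 95.4% of brain spots and 95.1% of heart spots had at least 1 count, and after it 93.7% and 95.6%. Small and large subunit sums had a Spearman correlation of 0.07 over brain spots and 0.11 over heart spots, which in counts this sparse is no finding.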

How the data were processed

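Per the submitters' processing notes, the authors aligned and counted reads with STARsolo against mm39. Its version, and whether strand, introns, multi-mapping reads or molecular tags were used, are not given in the sources used here. The deposited values are counts, as whole numbers in 1 sparse matrix per section, taken unchanged. Spots had at least 500 counts and 200 features. Counts were summed over spots and scaled to CPM, with exact Poisson, binomial and conditional binomial intervals at 95%. Spots were grouped with scanpy 1.11.5 (Leiden resolution 0.6, 2000 variable genes, 20 components, 15 neighbours, groups of at least 50 spots), leaving out members, their pseudogenes, the listed genes, mitochondrial RNA and rRNA. Spots were not tested for doublets. Groups carry numbers, since a spot can hold several cell types.

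GENCODE release 21, on GRCm 38, served only for lookups by gene ID: 35551 of the 40276 IDs and all 80 members were found. Transcript length is that of the shortest coding transcript at the best principal-isoform level. Thinning of spots used seed 1, and the grouping of spots and the simulated data had other fixed seeds. Ratio and interval code was tested on simulated data.

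The members, lists, marker sets and rules were chosen with earlier results of these data known. Named are the 10 members that led either section per kb or by CPM, the 8 at 20 CPM that differed most towards either tissue, all paralogs ending in l, the stalk proteins, Rpsa and Rps27a, members under 20 CPM, the members just around 1.5-fold, the 3 with the largest ratios in the highest and lowest 2 groups of each section at 50 CPM, and of each other list 2 to 4 of its most abundant genes and those that went against their list by 2-fold at 20 CPM. Nop56, Nop58 and Mrpl51 were named after their values were seen. The comparison with short and long genes, the spots of 5000 to 20000 counts, the Myl7-led group's Rpl3l ratio, Syngr1 by group and the shares of features from 5 to under 20 CPM and of features whose groups do not overlap were added after seeing the data. Alternatives were the scaling, equal spot weights, other filters, floors and folds, leaving out overlapped members, adding pseudogenes, and other grouping resolutions. A few genes that this rule would name are not reported here by name.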

Additional observations from a re-analysis of the deposited data

Results flagged for a closer look

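Barcodes below the spot threshold, which the comparisons leave out, also held counts of the ribosomal protein genes. In brain there were 146 member counts among 156957, or 0.0930% (0.0785 to 0.109%), beside 0.105% in kept spots. In heart there were 224 among 154831, or 0.145% (0.126 to 0.165%), beside 0.142% in kept spots. Each of these intervals includes the share of the section's kept spots.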

How the results depend on the processing

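Of the alternatives run for the 10 summary results and for the Rpl3l ratio of the Myl7-led group, 35 stayed, 31 moved and 0 reversed. Counts of members stayed if they changed by at most 1.5 times, and ratios of counts if they lay within counting error. The median log2 ratio was held against its spread over members, and the correlations against an interval over spots, so neither limit is counting error. Counts of members had no reversed outcome under this rule, and group ranges are never under 1, so neither could reverse. The brain range was group 2 over group 10, but group 7 over group 3 in spots of 5000 to 20000 counts. The summed heart-over-brain ratio of 1.35 was 1.98 outside ribosomal, mitochondrial and small structured RNA, 1.15 with equal spot weights, 1.47 without overlapped members, 1.33 with pseudogenes added and 1.29 without Rplp0, Rps2 and Rpl3l. The 10 members called higher in heart became 50 on the second scale, 6 with equal weights, 5 without overlapped members, 32 at 5 CPM, 1 at 50 CPM and 2 at 2-fold. The 1 called higher in brain became 2 with equal weights or at 5 CPM, and 0 on the second scale, without overlapped members, at 50 CPM or at 2-fold. The members' median log2 ratio of 0.52 was 1.04 on the second scale and 0.23 with equal weights. The brain group range of 1.76 was 1.86 on the second scale, 2.12 with spots of at least 1000 counts and 400 features, 2.11 at Leiden resolution 1.0 and 1.61 in spots of 5000 to 20000 counts. The heart range of 1.54 was 1.87, 2.16, 1.63 at resolution 0.3 and 2.69 at 1.0. Groups at other resolutions and filters are not the same spots. The small-to-large ratio was 0.993 in brain and 0.924 in heart without overlapped members, and 0.769 in brain with pseudogenes added. The heart correlation over spots was 0.046 when thinned to 1500 counts. The Rpl3l ratio between the rest of the heart and the Myl7-led group stayed between 6.39 and 7.63. Apart from the scale, spot weight, overlap and grouping named here, the cause of a shift was not tested. Among single members, Rpl4 (1.04) was 0.905 and Rplp1 (1.04) 0.919 with equal weights, Rps21 and Rps27a turned to heart on the second scale, and Rps2 was 3.18 with equal weights. No paired analysis was possible because each tissue has 1 section, and no replicate could be left out.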
